A study of Mus musculus with 35 samples.

Results

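Chromatin accessibility was compared between naive mouse embryonic stem cells that lack Tet1, Tet2 and Tet3 (TET_KO) and their parental line (TET_WT), both at D0 in 2i/Lif medium. The comparison rested on 3 TET_KO and 3 TET_WT libraries out of 35 in the series, and on 128224 tested autosomal tiles of 2 kb out of 1362779 tiles in the table. The members were chosen by line and day, and each chromosome was first centred on the read density of its less accessible tiles, because copy number differed between the lines. Each library came from 10000 cells by ATAC-seq, which tags accessible DNA with adapters carried by a transposase. Other comparisons served as reference: TET_KO against TET_WT at D2 of differentiation towards epiblast-like cells (2 and 3 libraries), and at D0 a triple knockout of Dnmt1, Dnmt3a and Dnmt3b (DNMT_KO) against its own parental line (DNMT_WT), with 3 libraries each. Each genotype was 1 line, so a difference of the knockout cannot be told apart from another difference between the lines. The labels do not say that the libraries of a group came from separate cultures, so the tests measure the spread between libraries, which may be technical.

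TET enzymes oxidise 5-methylcytosine, which leads to loss of DNA methylation passively through replication or actively through base excision repair. DNA methyltransferases lay the mark down (Dnmt3a, Dnmt3b) or copy it after replication (Dnmt1). Stem cells in 2i/Lif have little DNA methylation, and TET proteins are best known there for keeping enhancers and CpG-rich promoters free of it.

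Recovered autosomal reads ranged from 5861984 to 9601449 in the TET_KO libraries and from 10100293 to 23098422 in the TET_WT libraries, and the median tested tile held 9 to 39 reads per library. Tested tiles took 24.0 to 26.3% of reads in TET_KO and 24.6 to 27.3% in TET_WT, so the overall enrichment overlapped between the lines. Stem cell marker promoters (8 of 8 measured, Pou5f1, Sox2, Nanog and others) had a mean level of 2.27 to 2.57 in TET_KO libraries and 2.38 to 2.79 in TET_WT libraries, in log2 units over the chromosome background, against a median of 1.83 for all promoters. Fibroblast marker promoters (8 of 9 measured) lay at 0.82 to 1.05 and 0.31 to 1.24, with overlapping groups, and their part in the results was not tested. The 5 trophoblast marker promoters lay at 1.43 to 1.80 in TET_KO and 1.04 to 1.37 in TET_WT, without overlap and with none called. This was not shared by the wider trophoblast list. Its 11 promoters had a median change of 0.01, against 0.04 for all genes, with 6 above 0. They ran from -1.22 at Krt18 to 1.47 at Tpbpa, which is also 1 of the 5 markers. Markers of 2-cell-like cells (4 of 5 measured) lay at -0.66 to 0.05 in TET_KO and -1.996 to -0.93 in TET_WT, also without overlap and with none called. The wider 2-cell-like list of 11 promoters had 6 above 0, with a median change of 0.64, but -0.13 with thinned reads. It ran from -0.77 at Tcstv3 to 2.06 at Zscan4d, which is also 1 of the markers. The part of either list in the results was not tested. In bulk libraries, fewer cells with an open site and a less open site in each cell cannot be told apart.

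Accessibility at the deleted genes did not settle whether exons were missing. No tile inside Tet1 (42 tiles), Tet2 (42) or Tet3 (48) lay at least 2 log2 units lower in every TET_KO library than in every TET_WT library. The mean was lower by about that much in 4 tiles that are not among the tested tiles. In Tet3 the tile at 83372001 held 1, 2 and 2 reads in TET_KO and 26, 8 and 13 in TET_WT (-2.02), and those at 83374001 and 83404001 differed by -1.98 and -1.96. In Tet1 the tile at 62822001 held 11, 2 and 1 reads against 42, 12 and 17 (-2.02). The groups did not overlap in these 4 tiles, which were picked for their low values, nor in 14.7% of all tested tiles. At D2 the Tet3 tile at 83372001 held 2 and 5 reads in TET_KO and 14, 7 and 18 in TET_WT. That at 83374001 held 7 and 9 against 14, 7 and 15, and that at 83404001 6 and 18 against 13, 15 and 12. The Tet1 tile held 8 and 12 against 25, 11 and 11 at D2. At D0 the promoter tiles differed by 0.03 ± 0.26 (SE, 3 against 3 libraries) at Tet1, -0.09 ± 0.25 at Tet2 and -0.04 ± 0.31 at Tet3. An exon deletion can leave the promoter open, and a deletion below 2 kb can leave reads in its tile.

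Promoter sequences are given for 4 genes whose start lies in a tile, or is the single tile of a neighbourhood, that was called at D0. They are the 250 bases upstream of the start, 5′ to 3′ on the gene's strand, from RefSeq on GRCm38.p6, with CpG dinucleotides, the substrate of both enzyme families, in capitals. The median over 16460 promoters was 11 CpG in 250 bases. 2410141K09Rik, the promoter that fell, lies at chr13:66441119-66441368 on the minus strand and holds 5 CpG (68.0% of promoters hold as many or more). Cfhr3, a complement factor H-related gene, lies at chr1:139661007-139661256 on the minus strand and holds 0. Gm10499 lies at chr17:36145950-36146199 on the minus strand and holds 5. Mael, a gene of the germline piRNA pathway that silences transposons, lies at chr1:166238745-166238994 on the minus strand and holds 18 (31.1% of promoters hold as many or more).
2410141K09Rik: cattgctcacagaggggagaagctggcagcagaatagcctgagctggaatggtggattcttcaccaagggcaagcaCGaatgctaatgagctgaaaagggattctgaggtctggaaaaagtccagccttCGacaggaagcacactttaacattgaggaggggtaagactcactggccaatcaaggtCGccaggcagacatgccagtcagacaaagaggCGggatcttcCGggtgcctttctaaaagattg
Cfhr3: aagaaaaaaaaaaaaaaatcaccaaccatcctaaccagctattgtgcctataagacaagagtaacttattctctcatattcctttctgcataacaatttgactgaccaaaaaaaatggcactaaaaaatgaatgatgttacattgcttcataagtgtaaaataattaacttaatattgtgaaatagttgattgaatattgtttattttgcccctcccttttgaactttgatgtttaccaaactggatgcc
Gm10499: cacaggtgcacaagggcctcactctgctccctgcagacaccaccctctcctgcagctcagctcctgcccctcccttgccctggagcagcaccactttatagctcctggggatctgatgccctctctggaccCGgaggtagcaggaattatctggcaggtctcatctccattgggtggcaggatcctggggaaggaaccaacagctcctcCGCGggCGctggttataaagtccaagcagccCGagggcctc
Mael: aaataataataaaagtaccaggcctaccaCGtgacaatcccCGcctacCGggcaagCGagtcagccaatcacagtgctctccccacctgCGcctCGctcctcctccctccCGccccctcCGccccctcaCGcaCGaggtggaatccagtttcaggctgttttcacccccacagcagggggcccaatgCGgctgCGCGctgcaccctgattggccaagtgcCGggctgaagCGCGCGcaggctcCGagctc

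The broadest difference between the lines was in the read density of whole chromosomes. Relative to all autosomes, the less accessible tiles of chromosome 8 had a log2 read density of 0.36, 0.40 and 0.29 in the TET_WT libraries and -0.15, -0.00 and -0.07 in the TET_KO libraries. On chromosome 14 the values were 0.33, 0.29 and 0.35 in TET_WT and -0.07, -0.02 and -0.04 in TET_KO. TET_KO thus lay lower by 0.42 on chromosome 8 and by 0.37 on chromosome 14, a density 0.747 and 0.776 times that of TET_WT, and by 0.19 on chromosome 6 and 0.13 on chromosome 11. The higher density was in the parental line, and the groups did not overlap on these 4 chromosomes. The groups did not overlap on 13 of the 19 autosomes in all. In the DNMT lines of D0 the mean log2 density on chromosome 8 was 0.39 in DNMT_WT and 0.38 in DNMT_KO. On chromosome 14 it was -0.19 and -0.09. With 3 against 3 libraries an exact permutation test cannot go below 0.1, so no p is given for a chromosome.

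**Figure D1:**
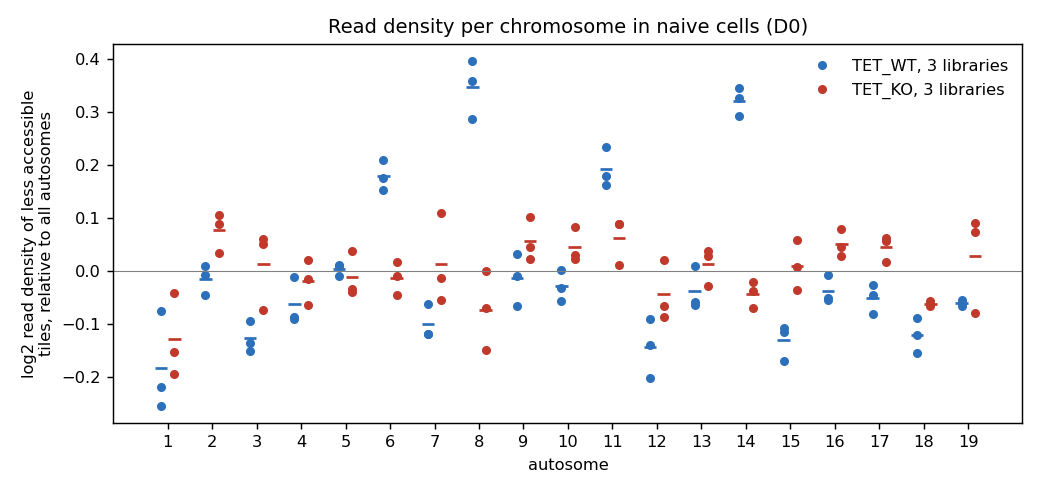
Log2 read density of the less accessible tiles on each autosome, relative to all autosomes, in the 3 TET_WT (blue) and 3 TET_KO (red) libraries of D0, with points for libraries and bars for means. TET_WT stands above TET_KO on chromosomes 6, 8, 11 and 14.

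Centring decided most calls around genes. A gene's neighbourhood averages those tested tiles for which its start is the nearest, up to 50 kb away. Without centring, 747 of 20052 neighbourhoods passed the test, 223 higher and 524 lower in TET_KO, and 95.2% of the lower ones lay on chromosomes 6, 8, 11 and 14, which hold 22.5% of neighbourhoods. After centring 22 were called (0.11%), 16 higher (0.0798%) and 6 lower (0.0299%), of which 21 had also been called without it. The fits on the 6 TET libraries and on the 12 libraries of D0 called 0, so every neighbourhood call named here is lost in both. Higher and lower calls numbered 0 and 4 without further normalisation, 4 and 4 with each library shifted to the same median, 60 and 87 by limma voom and 48 and 4 with thinned reads. Leaving out 1 library gave 14, 7 and 10 calls without TET_KO replicates 1, 2 and 3, and 0, 5 and 83 without TET_WT replicates 1, 2 and 3.

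After centring, 70 of the 128224 tested tiles differed between TET_KO and TET_WT (0.0546%) by limma with Benjamini-Hochberg adjustment at an adjusted p under 0.05. In TET_KO 44 were higher (0.0343%) and 26 lower (0.0203%), with changes from -4.35 to 3.20 on the log2 scale and none smaller in size than 0.87. At an unadjusted p under 0.05 there were 10501 tiles (8.19%). The libraries of the lines did not overlap in 14.7% of all tested tiles; that they do not overlap in the 70 follows from how these were chosen and is no further result. The balance of directions depended on the scaling: 6 tiles were higher and 15 lower without further normalisation, 15 and 16 with each library shifted to the same median, and 124 and 19 by limma voom on recovered reads. The count depended on single libraries: it was 14 without TET_WT replicate 1, 13 without TET_WT replicate 2, 233 without TET_WT replicate 3, 47 without TET_KO replicate 1, 29 without TET_KO replicate 2 and 27 without TET_KO replicate 3. With reads thinned to the depth of the shallowest of the 6 libraries, 23 tiles were called, 17 of them among the 70.

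**Figure D2:**
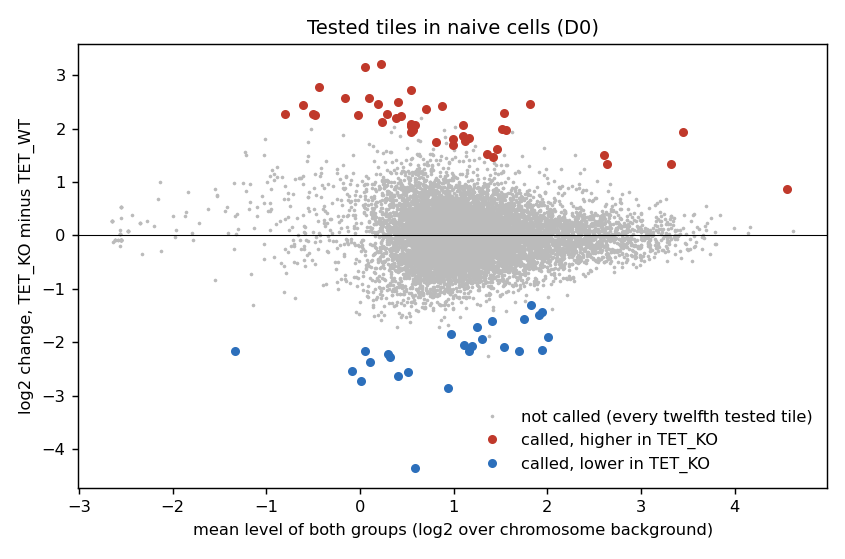
Log2 change of tested tiles (y axis) against their mean level over the chromosome background (x axis) at D0, with called tiles in colour and every twelfth other tile in grey. The 44 higher and 26 lower tiles stand at the edges of a cloud centred near 0.

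Of the called tiles, 64.3% lay outside protein-coding genes, against 34.0% of tested tiles. A further 22.9% lay inside such genes away from a start (51.6% of tested tiles) and 12.9% held a gene start (14.4%). Non-coding genes outside the gene lists were not placed, so the nearest genes and these classes do not cover them. The 26 lower tiles had a median of 5.83 reads in TET_KO and 48.8 in TET_WT, averaged over the libraries of a line. The 44 higher tiles had 19.7 and 10.5. The 10 tiles on each side had a change of the same sign for 26 of 26 lower tiles (median -0.63) and 36 of 44 higher tiles (median 0.34), against 83.5% and 41.1% of all tested tiles that were lower or higher. Tiles of 1 run share flanking tiles and are in their neighbours' flanks, so these counts are not independent.

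The largest fall lay on chromosome 13, outside any protein-coding gene and 40.4 kb from the start of the predicted gene Gm46425 (chr13:65990001-65992000). TET_KO libraries held 2, 0 and 3 reads there and TET_WT libraries 87, 43 and 68. In log2 units over background the levels were -1.92, -2.43 and -0.40 in TET_KO and 2.69, 2.85 and 2.75 in TET_WT. The groups were far apart, with a change of -4.35 ± 0.39 (adjusted p = 4.80e-09, limma). The 20 flanking tiles held few reads in both lines (5 to 12 in TET_KO, 23 to 83 in TET_WT) and differed by -1.52. At D2 the 2 TET_KO libraries held 2 and 8 reads and the TET_WT libraries 35, 44 and 41, a change of -3.27 ± 0.43.

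Another fall on chromosome 13 spanned 4 called tiles over chr13:66698001-66718000, 18.2 to 36.2 kb from the start of Zfp640, a zinc finger gene in a cluster of such genes. All 4 tested tiles in the run were called, with changes from -2.17 to -1.48, but none of them was called with thinned reads. Of the 6 fits without 1 library, the tiles at 66714001 and 66716001 were each called in 3. The tile at 66698001 was called in 2 and that at 66710001 in 0. The tile at 66714001 held 12, 13 and 9 reads in TET_KO and 104, 53 and 62 in TET_WT. TET_KO was lower in every library, by 1.90 ± 0.34 (adjusted p = 0.00884, limma). The Zfp640 neighbourhood of 5 tiles fell by 1.47 ± 0.21 (adjusted p = 0.00666, limma), and its call was also lost without TET_WT replicate 1 (adjusted p = 0.0628) and with neighbourhoods within 20 kb (adjusted p = 0.162). The promoter tile of 2410141K09Rik, in the same cluster, held 1, 1 and 4 reads in TET_KO and 41, 14 and 33 in TET_WT. It fell by 2.73 ± 0.53 (adjusted p over promoters = 0.027, limma), and its call was lost without each of TET_KO replicates 1 and 2 and TET_WT replicates 1, 2 and 3. The fall was not shared by the tested tiles of the surrounding cluster as a whole. That span holds 51 genes, of which 25 are named as zinc finger genes. Of its 81 tested tiles, 6 were called lower, the Gm46425 tile among them, and the median change was 0.05. Tiles beside the falls were lower as well, on few reads. The 17 flanking tiles of each called Zfp640 tile differed by -1.33 to -1.02, and the 20 of the 2410141K09Rik tile by -1.01.

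A further region lay upstream of Apod, which encodes the lipid carrier apolipoprotein D. A set of 3 adjacent tiles at chr16:31324001-31330000, 10.2 to 14.2 kb from its start, were called, and the other 3 tested tiles within 10 kb were lower in TET_KO as well (-1.53 to -0.89). The less accessible tiles of the 5 Mb window around the set differed by -0.25 after centring by chromosome. The middle tile held 9, 7 and 7 reads in TET_KO and 86, 34 and 64 in TET_WT. The levels were 0.27, 0.44 and 0.76 against 2.66, 2.396 and 2.69, a fall of 2.09 ± 0.33 (adjusted p = 0.0021, limma). At D2 the change there was -2.80 ± 0.37. The Apod neighbourhood of 16 tiles fell by 1.02 ± 0.16 (adjusted p = 0.00817, limma), with its call also lost without TET_KO replicate 2, TET_WT replicate 1 or TET_WT replicate 2.

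The tile 13.5 kb from the start of Stac2, an adaptor gene of calcium channels, held 6, 3 and 3 reads in TET_KO and 86, 46 and 47 in TET_WT (chr11:98066001-98068000). It fell by 2.86 ± 0.33 (adjusted p = 3.04e-06, limma), and a tile 8 kb away was also called lower, by 1.72. The other 8 tested tiles within 10 kb of the pair were lower too, with a median of -0.71. Other called falls of the 12 largest lay nearest to Reep1, Memo1, Mrpl15 (a mitochondrial ribosomal protein) and Slc38a2 (an amino acid transporter). The rest lay nearest to Spire2 (an actin nucleator), Ppp1r3b (a glycogen-targeting phosphatase subunit) and Nlrp1b (an inflammasome sensor). The tiles lay inside these genes except those assigned to Mrpl15 and Ppp1r3b, which lay outside protein-coding genes, 88.75 and 162.7 kb from the gene start. Their changes ran from -2.54 at Reep1 to -2.16 at Nlrp1b. The Nlrp1b tile held 0, 1 and 0 reads in TET_KO and 20, 11 and 8 in TET_WT, so its size depends on the value given to an empty tile.

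The largest rise lay 61.3 kb from the start of Hspb3, a small heat shock protein gene (chr13:113724001-113726000). TET_KO libraries held 22, 21 and 16 reads and the deeper TET_WT libraries 12, 4 and 3. The levels were 1.67, 1.96 and 1.85 in TET_KO and -0.97, -1.18 and -1.98 in TET_WT, so that TET_WT lay below background and TET_KO above it. The rise was 3.20 ± 0.36 (adjusted p = 2.35e-06, limma). At D2 TET_KO held 44 and 47 reads and TET_WT 1, 2 and 3, a rise of 4.73 ± 0.40. The DNMT lines held 14 to 20 reads (DNMT_KO) and 12 to 35 (DNMT_WT) at D0, so TET_WT held the fewest reads of the 4 lines although its libraries were the deepest.

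A run of 3 called tiles lay at chr5:109550001-109556000 beside Crlf2, which encodes a chain of the receptor for thymic stromal lymphopoietin. The middle tile was among the most accessible of all called tiles. It held 103, 107 and 144 reads in TET_KO and 80, 37 and 56 in TET_WT. The levels were 4.25, 4.32 and 4.65 against 2.47, 2.48 and 2.50, a rise of 1.93 ± 0.22 (adjusted p = 3.04e-06, limma). At D2 the rise was 1.80 ± 0.25, and the other 3 tested tiles within 10 kb of the run were higher in TET_KO at D0 (0.38 to 1.18). The Crlf2 neighbourhood rose by 0.93 ± 0.16 (adjusted p = 0.0266, limma), a call also lost without TET_KO replicates 2 or 3 or TET_WT replicates 1 or 2, without further normalisation (adjusted p = 0.12) and with the median shift (adjusted p = 0.0756).

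Further rises stood on fewer reads. The tile 14.9 kb from Sult3a2, a sulfotransferase gene, held 52, 49 and 42 reads in TET_KO and 28, 7 and 23 in TET_WT, a rise of 2.45 ± 0.34 (adjusted p = 0.000172, limma). The tile 2.28 kb from Mak16, a ribosome biogenesis gene, held 21, 15 and 12 reads in TET_KO and 13, 5 and 5 in TET_WT, a rise of 3.14 ± 0.49. The tile 334 kb from Prkd1, the gene of protein kinase D1, held 13, 12 and 6 reads against 7, 2 and 3, a rise of 2.78 ± 0.44. The other called rises of the 12 largest, from 2.36 to 2.73, had as nearest gene Vstm2b, Gm10499, Cfhr3, Adam6a, Ear10, Gm20767, AA467197 and Vmn2r79. The tiles assigned to Vstm2b, Vmn2r79 and Adam6a lay outside protein-coding genes, 536.3, 100.5 and 67.1 kb from the gene start. Several of the nearest genes belong to families of near-identical genes, where reads may be shared between copies. They include Ear10, an eosinophil ribonuclease, Vmn2r79, a vomeronasal receptor, and Sult3a2. The other nearest genes were not checked for such copies, Gm10499 (whose tile also overlaps Gm8909) and Cfhr3 among them. The sources used here do not state how reads mapping to several places were treated, so these rises are uncertain. The same limit holds for the falls in the zinc finger cluster of chromosome 13.

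Of the 70 tiles, 8 were called in each of the 6 fits that left out 1 library. The lower ones were those near Gm46425 and Stac2 and the middle Apod tile. The higher ones were the middle Crlf2 tile and those near Sult3a2, Prkd1, Mak16 and Hspb3. With thinned reads 6 of these 8 were called as well, the exceptions being the Mak16 and Hspb3 tiles.

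**Figure D3:**
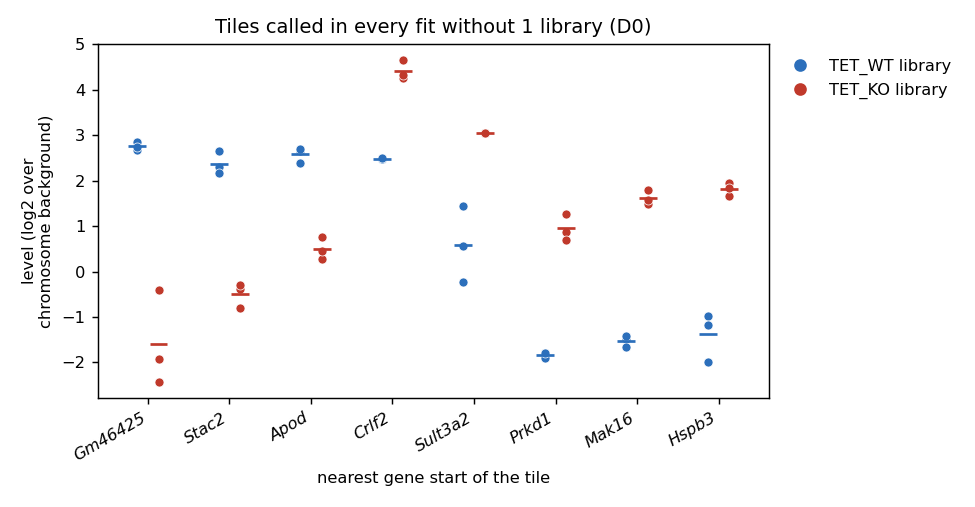
Level of the 8 tiles that were called in each fit without 1 library, in log2 units over the chromosome background, by nearest gene, for TET_WT (blue) and TET_KO (red) libraries, with bars for means. The lines do not overlap in any of them, which follows from how they were chosen.

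The same lines at D2 gave values from other libraries. The TET_KO change at D2 had the sign of the D0 change in 66 of the 70 called tiles (94.3%), against 58.3% of all tested tiles, and 39 of the 70 (55.7%) reached an unadjusted p under 0.05 in that direction, against 4.74% of all tested tiles. At D2 44 tiles were called (0.0343%), 12 higher (0.00936%) and 32 lower (0.025%), and 10 were called on both days, which is 14.3% of the D0 calls and 22.7% of the D2 calls. With each library shifted to the same median in place of quantile normalisation, the D2 count was 24. Across all tested tiles the Pearson correlation of the D0 and D2 changes was 0.26 (n = 128224 tiles, which share libraries and chromosomes). The median change of the called higher tiles was 2.08 at D0 and 0.90 at D2, and that of the lower tiles -2.15 and -1.02. The tiles were chosen on their D0 change and not on that at D2, but libraries of both days entered the tile filter and the estimate of the spread. A tile of small estimated spread passes more easily on both days, so the 55.7% is not independent of the choice. The difference between the days passed the test in 0 tiles by limma (4877 at an unadjusted p under 0.05).

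The DNMT lines gave values from cells that lack the methyltransferases in place of the TET enzymes. DNMT_KO differed from DNMT_WT at D0 in 0 tiles by limma (0%), with 8370 at an unadjusted p under 0.05. These DNMT libraries held 4994764 to 7424947 autosomal reads, fewer than any TET_WT library of D0. Their median tested tile held 8 to 13 reads. With thinned reads the TET comparison called 23 tiles, and the part of depth in the DNMT count was not tested. Of the 70 tiles, 30 had the same sign as in TET_KO (42.9%, against 48.5% of all tested tiles), and their median DNMT_KO change was -0.02. The difference of the TET_KO and DNMT_KO effects passed the test in 6 tiles (0.00468%). It was below 0 in 3 (0.00234%), near Gm46425, Apod and Stac2, and above 0 in 3 (0.00234%), near Crlf2, Sult3a2 and Hspb3.

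**Figure D4:**
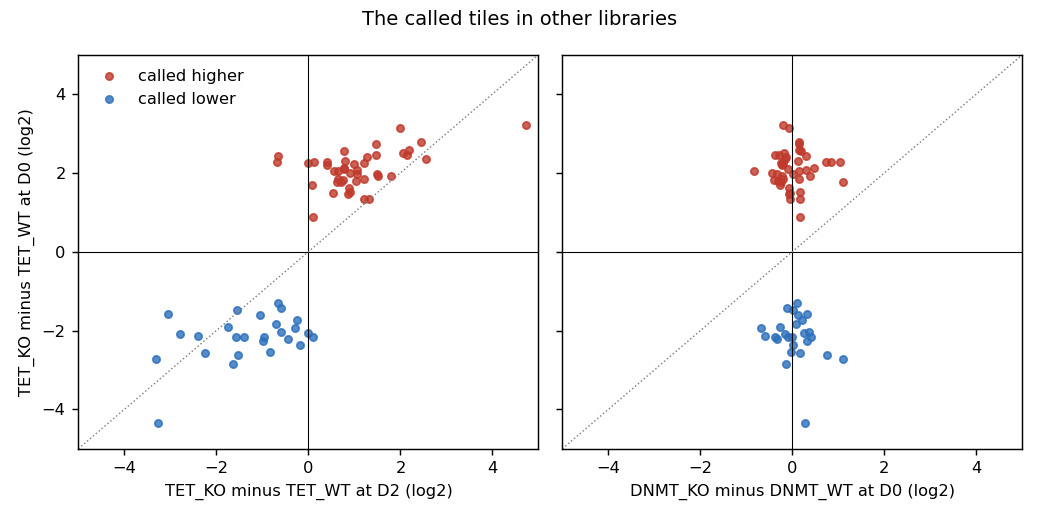
Log2 change at D0 of the 70 called tiles in TET_KO (y axis) against their change in TET_KO at D2 (left) and in DNMT_KO at D0 (right), each against its own parental line, with higher tiles in red and lower in blue. The sign is shared by 66 tiles on the left and 30 on the right.

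Among promoter tiles, 8 of 19492 genes were called (0.041%), 7 higher (0.0359%) and 1 lower (0.00513%). The direction turned with the scaling: without further normalisation, and with each library shifted to the same median, 0 were called higher and 2 lower, and limma voom and the fit on the 12 libraries of D0 called 0. The lower one was 2410141K09Rik. The higher ones were Gm10499, Cfhr3, Gm20767, Olfr575 (an olfactory receptor), Mup-ps16, Gm51598 and Aspg (an asparaginase), with rises of 1.62 to 2.58. Reads may be shared between copies for some of these genes too, which was not checked. The Cfhr3 promoter tile, whose sequence without CpG is shown above, held 17, 9 and 13 reads in TET_KO and 8, 2 and 9 in TET_WT. The Gm10499 promoter tile held 18, 10 and 9 reads against 10, 6 and 1. When tiles with a mean under 1 read over the 23 libraries were left out, an alternative chosen after seeing the data, 3 promoters were called: 2410141K09Rik, Cfhr3 and Gm10499. No promoter was called without TET_KO replicate 2 or TET_WT replicate 1, 1 was called without TET_KO replicate 1, TET_KO replicate 3 or TET_WT replicate 2, and 27 without TET_WT replicate 3.

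Promoters were split into 3 classes of similar size by their CpG count in the 250 upstream bases. The CpG-poor class (0 to 5 CpG, 5836 genes) had a median change of 0.15, with 6 called higher and 1 lower. The middle class (6 to 17 CpG, 5513 genes) and the CpG-rich class (18 to 56 CpG, 5111 genes) had medians of 0.01 and 0.02, with 0 called. The CpG-poor promoters were also the least accessible (median level -0.03, against 2.07 and 2.45). With reads thinned to 1 depth the medians were 0.04, 0.04 and 0.06, so the CpG-poor class was no longer the highest.

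Weakly covered tiles moved most with depth. Tested tiles with a mean of over 2 to 5 reads (1233 tiles) had a median change of 0.42, and 0.12 with thinned reads. Tiles of over 12 reads (82199) had a median of -0.06, and -0.02 with thinned reads.

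Of the 18 gene lists, 3 held a called member, in each case 1 gene and in the neighbourhood readout (0.11% of all neighbourhoods). No list had a called promoter. The lists were the methylation-dependent germline genes (Mael), imprinted genes (H19) and neuroectoderm genes (Olig2).

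Germline genes whose CpG-rich promoters are silenced by DNA methylation had a median promoter change of 0.48, against 0.04 for all genes. The change was above 0 in 19 of 22 (86.4%, against 55.0% of all promoters) and 4 reached an unadjusted p under 0.05 (7.84% of all promoters did), with 0 called. With thinned reads the median was 0.47 and 17 of 22 were above 0. At D2 the median was 0.26 with 13 of 22 above 0, and in DNMT_KO at D0 it was 0.12 with 13 of 22 above 0. Mael had the largest change. Its promoter tile had levels of 1.81, 2.47 and 2.41 in TET_KO and 0.35, 0.16 and 1.59 in TET_WT. The groups did not overlap, as in 14.7% of all tested tiles, and the difference was 1.53 ± 0.33 (adjusted p over promoters = 0.0557, limma). The same tile was its whole neighbourhood and passed there (adjusted p = 0.0487, limma). That call was also lost without TET_KO replicates 2 or 3 or TET_WT replicates 1 or 2, with thinned reads (adjusted p = 0.108), without further normalisation (adjusted p = 0.115) and with the median shift (adjusted p = 0.0756). Without the filter on tiles, where a neighbourhood takes in less accessible tiles too, the Mael neighbourhood turned direction (-0.0206, adjusted p = 0.949, limma). Tex19.2 (1.22 ± 0.49), Ddx4 (0.68 ± 0.38), a germ cell RNA helicase, and Dazl (0.43 ± 0.25), a germ cell RNA-binding protein, did not pass. Sycp1, a synaptonemal complex gene, went the other way (-0.63 ± 0.38) and did not pass.

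The 2-cell-like genes had a median promoter change of 0.64, but -0.13 with thinned reads. Their tiles held few reads (median level -0.63), 3 of the 11 (Zscan4b, Zscan4c and Zscan4f) had the same values as empty tiles, and 0 were called. Zscan4d, the largest, had levels of 0.36, 0.96 and 1.99 in TET_KO and -1.72, -1.67 and 0.50 in TET_WT, which overlap (2.06 ± 0.57, adjusted p = 0.223, limma). Members of this family are near-identical copies and are uncertain.

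Imprinted genes, which are expressed from 1 parental allele under the control of methylated regions, had a median promoter change of 0.12 with 16 of 28 above 0 and 0 called. The H19 neighbourhood rose by 1.30 ± 0.20 (adjusted p = 0.00817, limma), with levels of 1.72, 1.67 and 2.00 in TET_KO and 0.41, 0.48 and 0.60 in TET_WT. It held 3 tiles, of which the one 2.85 kb from the H19 start (taken as its more accessible end) was called by itself (1.77 ± 0.36, adjusted p = 0.0339, limma). The neighbourhood call was also lost without TET_KO replicate 3, TET_WT replicate 1 or TET_WT replicate 2, without further normalisation (adjusted p = 0.108), with the median shift (adjusted p = 0.0717) and without the filter on tiles (0.14, adjusted p = 0.513). At D2 the change was 0.54 ± 0.22. In DNMT_KO at D0 the called H19 tile was higher as well, by 1.09 ± 0.36 (adjusted p = 0.588, limma). The TET_KO effect minus the DNMT_KO effect in that tile was 0.68 ± 0.51 and did not pass (adjusted p = 0.784, limma). A tile inside Peg3, another imprinted gene, was the most accessible called tile and had the smallest change, 0.87 ± 0.18 (adjusted p = 0.046, limma), with 168, 166 and 169 reads in TET_KO and 176, 91 and 174 in TET_WT. Its call was lost in each of the 6 fits without 1 library. Kcnq1ot1 was lower without passing (neighbourhood -0.88 ± 0.24, adjusted p = 0.141, limma).

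Neuroectoderm genes had a median promoter change of 0.15 with 11 of 15 above 0 and 0 called, and 0.45 with 13 of 15 above 0 with thinned reads. The Olig2 neighbourhood of 8 tiles, around a transcription factor gene of motor neurons and oligodendrocytes, fell by 0.87 ± 0.15 (adjusted p = 0.0235, limma). Levels were 0.97, 0.91 and 1.16 in TET_KO and 2.00, 1.88 and 1.78 in TET_WT. The call was also lost without TET_KO replicates 1 or 2 or TET_WT replicates 1 or 2, with thinned reads (adjusted p = 0.0933) and with centring per 5 Mb (adjusted p = 0.0829). The Vav1 neighbourhood, around a haematopoietic signalling gene, was chosen from the called neighbourhoods after its values were seen. It rose by 0.91 ± 0.13 (adjusted p = 0.00666, limma) over 17 tiles, with levels of 1.75, 1.63 and 1.68 against 0.76, 0.80 and 0.76, and its call was also lost without TET_WT replicate 1 (adjusted p = 0.0628), without further normalisation (adjusted p = 0.0647) and with centring per 5 Mb (adjusted p = 0.065).

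Naive pluripotency genes had a median promoter change of -0.07 with 8 of 20 above 0 and 0 called. Nanog, a core factor of the naive state, was the lowest, with levels of 2.41, 2.10 and 2.07 in TET_KO and 3.20, 2.85 and 3.11 in TET_WT. The groups did not overlap, as in 14.7% of all tested tiles, and the difference of -0.86 ± 0.27 did not pass (adjusted p = 0.312, limma). The core pluripotency list had a median of -0.19 (9 genes), the formative epiblast list -0.08 (17) and the TET and base excision list -0.10 (13), each with 0 called. In the Nodal and BMP signalling list the antagonist Lefty2 was lowest, at -1.31 ± 0.39 for its promoter (adjusted p = 0.285, limma) and -0.66 ± 0.15 for its neighbourhood (adjusted p = 0.0977, limma). The Lefty2 neighbourhood levels were 1.03, 1.07 and 1.08 in TET_KO and 1.92, 1.76 and 1.48 in TET_WT, and with thinned reads it was called. Haematopoietic regulators (21 promoters) had a median of 0.16, fibroblast genes (14) 0.35 (0.26 with thinned reads) and housekeeping controls (11) 0.02, with 0 called in each.

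**Figure D5:**
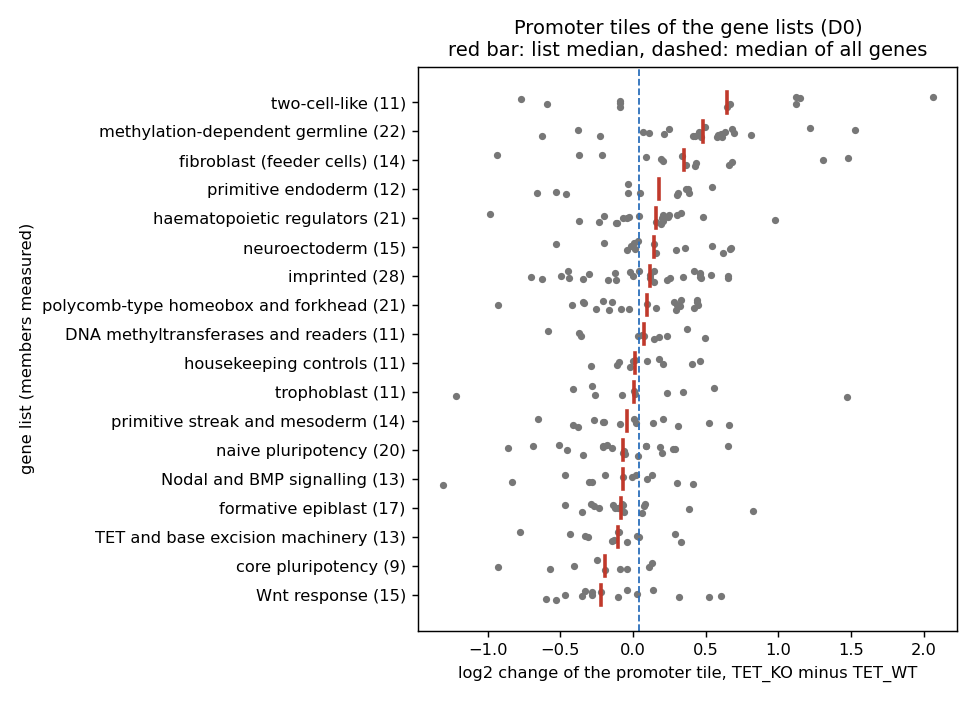
Log2 change of promoter tiles (x axis) for the members of 18 gene lists (grey points), with list medians as red bars and the median of all genes, 0.04, as a dashed line. The 2-cell-like and germline lists have the highest medians, 0.64 and 0.48, which were -0.13 and 0.47 with thinned reads, where the neuroectoderm list had 0.45.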

How the data were processed

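Per the submitters' processing notes, the tools were Trim Galore 0.6.5, cutadapt 2.3 and Bowtie2 2.4.1, with the build GRCm38. The authors deposited log2 RPKM values for tiles of 2 kb, per the file headers. Shifting for the transposase, duplicate removal and masking are not given in the sources used here. Values were whole multiples of 1 read (tolerance 0.01 read), with an empty tile at 0.9 read, so reads were recovered from them.

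Each library was centred per chromosome on the log2 mean reads of 1027953 less accessible autosomal tiles, then quantile normalised over the tested tiles. Tested tiles were the highest 10% by mean log2 RPKM over the 23 libraries of D0 and D2 (minimum -0.67, 123137 tiles) and tiles with a gene start. A limma 3.58.1 model with a trend of variance on level (R 4.3.3) was fitted with 1 mean per line and day (8 groups, 15 residual degrees of freedom), 2-sided, with Benjamini-Hochberg adjustment and calls under 0.05. D1 libraries, processed differently, stayed out. Genes were protein-coding genes and members of the gene lists. Their starts came from RefSeq with strand for 16460 genes and from the more accessible gene end for 4212. Of the latter, 1180 with similar ends had no promoter value. Of 297 list genes 285 were placed on autosomes.

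Named tiles were the 12 largest called rises and falls without overlap, 1 per nearest gene, the longest runs, the called promoters and the called list genes. The comparison, lists and rules were chosen with earlier results of these data known. The fit was tested on simulated data. Reads were drawn with the same spread for every tile and library, which the deposited libraries need not have. The simulation therefore does not give the share of false calls in the deposited data. With the chromosome densities of the deposited libraries few simulated tiles were wrongly called. With 1 chromosome changed in the TET_KO libraries of D0 only, the fit called empty tiles of that chromosome. Leaving out tiles under a mean of 1 read removed these, so that setting was added as an alternative. Same-numbered libraries of the lines deviated together with correlations of 0.08, 0.01 and 0.16, and were not treated as pairs.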

Additional observations from a re-analysis of the deposited data

Results flagged for a closer look

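In 6 tiles the TET_KO effect at D0 differed from the DNMT_KO effect by the test of the difference itself (limma, adjusted p under 0.05, 0.00468% of tiles). The differences, TET_KO effect minus DNMT_KO effect on the log2 scale, were -4.62 near Gm46425, -3.38 in the first Apod tile, -2.71 near Stac2, 2.15 in the middle Crlf2 tile, 2.74 near Sult3a2 and 3.40 near Hspb3. Processing of the TET and DNMT libraries differed in the read totals behind their RPKM, and its part in these differences was not tested.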

How the results depend on the processing

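Counts of calls are given as tiles, promoters and neighbourhoods, against 70, 8 and 22. Leaving out 1 library gave 13 to 233 tiles, 0 to 27 promoters and 0 to 83 neighbourhoods. The fit on the 6 TET libraries of D0 gave 53, 12 and 0, on the 12 libraries of D0 48, 0 and 0, and on all 35 libraries 92, 8 and 42. Without centring there were 148 (61 higher), 16 and 747. Centring per 5 Mb gave 49 (27 higher), 5 and 17, and on the median 57, 7 and 8. Without further normalisation there were 21 (6 higher), 2 and 4, and with a shift to the same median 31 (15 higher), 2 and 8. limma voom on recovered reads gave 143 (124 higher), 0 and 147. Thinned reads gave 23, 5 and 52, and thinned with the median shift, added after seeing the data, 21, 4 and 14. Filters gave 47, 0 and 5 (highest 5%), 80, 8 and 42 (highest 20%), 55, 4 and 1333 (no filter), 201, 15 and 58 (highest 10% by the 6 libraries) and 83, 3 and 18 (a mean of at least 1 read, added after seeing the data). Neighbourhoods within 20 kb gave 7. At D2 the median shift gave 24 tiles against 44. The Mael neighbourhood reversed without the filter (-0.0206, adjusted p = 0.949, limma). The cause of these differences was not tested. With a replicate block on the 6 libraries there were 705, 100 and 0 calls; the numbers are shared names, and not every library correlated best with its own number. Depth limits tiles of few reads: the median SE of a tile was 0.42.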
